A study of Mus musculus with 25 samples.

Results

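Topologically associating domains (TADs) of 2 Mb or more were described in mouse embryonic stem (ES) cells and mouse embryonic fibroblasts (MEFs). Members were chosen by length, as called from Hi-C: the autosomal TADs of the authors' ES or MEF domain file whose end minus start came to 2000000 bases or more. The ES file gave 206 such TADs of 2759 on autosomes and the MEF file 204 of 2713, which makes 410 of the 5593 TADs of both files. These 410 are called long TADs here, and the remaining autosomal TADs are those under 2 Mb. The borders came from the Hi-C libraries, so lengths, borders and Hi-C contacts are given as a description with no test, while the KLF4 and H3K27ac libraries had no part in the choice.

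A TAD is a stretch of chromosome whose loci contact one another more often than they contact loci beyond its borders. Borders are often held by the DNA-binding protein CTCF and the ring-shaped cohesin complex, and they tend to fall near active genes, so that gene deserts and clusters of silent genes often lie in longer domains. Inside a TAD, enhancers reach promoters, and the histone mark H3K27ac labels both when they are active. KLF4 is a zinc finger transcription factor that, with OCT4, SOX2 and c-MYC, turns fibroblasts into pluripotent cells, and it binds CACCC-type DNA motifs.

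The ES cells were of the V6.5 line, kept in 2i medium, and gave 4 KLF4 HiChIP, 2 H3K27ac HiChIP and 2 Hi-C libraries. HiChIP joins DNA ends that lie close together in fixed nuclei and then enriches them with an antibody, and Hi-C omits the antibody. MEFs came from E13.5 embryos (embryonic day of collection) heterozygous for the Oct4-GFP reporter, for rtTA3 and for a cassette of Oct4, Klf4, Sox2 and Myc (OKSM) that doxycycline (dox) turns on. They were taken at passage 3 and gave 2 H3K27ac HiChIP and 2 Hi-C libraries. Cells of the same origin, given dox and ascorbic acid, gave 3 KLF4 libraries on day 3 as a bulk population and 4 on day 6. Day 6 cells were sorted for the surface antigen SSEA1, so they are a selected subset of the culture, and KLF4 in both groups comes in part from the transgene. V6.5 cells labelled TKO, in 2i, gave 3 H3K27ac libraries without dox and 3 after 24 h of dox, and the labels used here do not say what TKO stands for. All cells of a library were pooled, so fewer cells with a contact and fewer contacts per cell cannot be told apart.

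HiChIP libraries held 48664847 to 180568707 contacts, and the lists of called interactions (pairs of 10 kb bins) ran from 4047 for KLF4 on day 6 to 318622 for ES Hi-C. At the bins of 8 ES marker genes, H3K27ac interactions numbered 125 in ES and 1 in MEF, higher in ES at 8 of 8. At 8 fibroblast marker genes they numbered 6 in ES and 49 in MEF, higher in MEF at 6 and higher in ES at 1. Libraries that differed by less than the sampling noise, at a chi-square p of 0.01 or more where other pairs of their group fell below it, were counted as 1 sample. These were ES KLF4 replicates 1 and 2 (chi-square over its degrees of freedom 1.002) and 3 and 4 (0.979), TKO replicates 1 and 3 with dox (1.008), and TKO replicates 2 and 3 without dox (1.01), the pair nearest to the limit. None of the 6 pairs of day 6 KLF4 libraries fell below it (0.895 to 0.995), and these 4 were kept apart. The labels do not tie libraries to separate cultures, so p-values measure the spread between libraries, which may be technical.

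The list of pluripotency genes put 7 of 23 autosomal genes into long ES TADs (30.4%, against 21.5% of all coding genes). These were Klf2, Esrrb, Sall4, Mycn, Prdm14, Tet1 and Dppa4, and RefSeq promoters (GRCm38.p6) were at hand for 4 of them. They are shown because contacts at these genes are described further on, and the promoter of Lrrc4c, a synaptic adhesion gene in the longest ES TAD, is set beside them. Each sequence holds the 250 bases before a RefSeq transcription start, 5′ to 3′ on the gene's strand, with CACCC or its reverse complement GGGTG in capitals. The RefSeq span of Tet1 reaches chr10:62887469, so part of its window lies inside the gene. Klf2 lies at chr8:72318812-72319061 (plus strand), Esrrb at chr12:86360867-86361116 (plus), Mycn at chr12:12941837-12942086 (minus), Tet1 at chr10:62887325-62887574 (minus) and Lrrc4c at chr2:96317919-96318168 (plus).
Klf2: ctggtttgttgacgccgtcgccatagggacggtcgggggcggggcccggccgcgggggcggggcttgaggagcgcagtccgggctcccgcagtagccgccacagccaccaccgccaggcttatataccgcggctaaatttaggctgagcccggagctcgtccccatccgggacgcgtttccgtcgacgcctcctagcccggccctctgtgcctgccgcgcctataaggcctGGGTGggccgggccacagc
Esrrb: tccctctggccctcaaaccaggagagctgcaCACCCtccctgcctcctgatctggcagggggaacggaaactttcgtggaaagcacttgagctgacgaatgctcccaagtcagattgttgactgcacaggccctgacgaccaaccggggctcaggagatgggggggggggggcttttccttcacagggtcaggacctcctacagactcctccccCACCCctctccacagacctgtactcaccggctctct
Mycn: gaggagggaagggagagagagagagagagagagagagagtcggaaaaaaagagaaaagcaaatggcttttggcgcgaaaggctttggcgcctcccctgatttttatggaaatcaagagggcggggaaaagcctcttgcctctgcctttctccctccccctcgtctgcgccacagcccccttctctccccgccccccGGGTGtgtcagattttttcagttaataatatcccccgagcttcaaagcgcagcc
Tet1: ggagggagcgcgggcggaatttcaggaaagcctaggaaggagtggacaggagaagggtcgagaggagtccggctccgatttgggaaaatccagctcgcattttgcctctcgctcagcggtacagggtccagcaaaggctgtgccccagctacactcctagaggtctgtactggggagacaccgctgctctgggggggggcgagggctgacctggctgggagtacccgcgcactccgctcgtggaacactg
Lrrc4c: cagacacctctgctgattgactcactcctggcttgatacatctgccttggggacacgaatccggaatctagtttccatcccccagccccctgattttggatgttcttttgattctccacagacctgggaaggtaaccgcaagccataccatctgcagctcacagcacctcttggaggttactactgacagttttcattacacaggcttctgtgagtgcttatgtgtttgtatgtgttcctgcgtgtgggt
Klf2 and Mycn each held 1 such motif, Esrrb held 2, and Tet1 and Lrrc4c held none in this window. The GC share was 71.2% for Klf2 and 49.6% for Lrrc4c, with 29 and 4 CpG pairs. The bin of the printed Klf2 promoter took part in 3 ES KLF4 interactions, that of Mycn in 5, that of Tet1 in 2 and those of Esrrb and Lrrc4c in 0.

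Over all 16456 coding promoters on autosomes, 53.7% held the motif in the same window. Of the 3541 coding promoters in long ES TADs 47.9% did, against 55.2% of the 12388 in ES TADs under 2 Mb. The lower share was seen in long TADs with clusters of receptor genes, where 26.0% of 832 promoters held it, and their median GC share was 36.0%. In long TADs rich in other genes it was 54.8% of 1793. Promoters of long ES TADs whose bin took part in an ES KLF4 interaction held the motif in 59.1% of 1138 cases, and those without one in 42.6% of 2403. Their median GC shares were 59.6% and 48.0%, and the part of base composition in the difference was not tested. ES TADs under 2 Mb showed the same order, with the motif in 61.0% of 4275 promoters with such an interaction and 52.1% of 8113 without.

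Long TADs were few but covered much of the genome. In ES they made up 7.47% of autosomal TADs and 26.1% of the span, 613 Mb, with a median length of 2.64 Mb and a maximum of 7.24 Mb. In MEF they made up 7.52% of TADs and 29.5% of the span, 691 Mb, with a median of 2.96 Mb and a maximum of 12.4 Mb. TADs under 2 Mb had medians of 0.56 Mb in ES and 0.52 Mb in MEF. The share of a chromosome's TAD span in long TADs ran from 13.3% on chromosomes 10 and 11 to 39.7% on chromosome 4 in ES, and from 14.5% on chromosome 9 to 47.2% on chromosome 7 in MEF. Around the threshold, the 13 ES TADs of 1.92 Mb held 7.81 coding genes per Mb, the 5 of 1.96 Mb 16.5, the 9 of 2.0 Mb 8.39 and the 11 of 2.04 Mb 4.06. The MEF values at the same lengths were 4.29 over 13 TADs, 12.3 over 7, 9.06 over 9 and 5.72 over 9. In both files the values moved up and down from length to length.

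**Figure D1:**
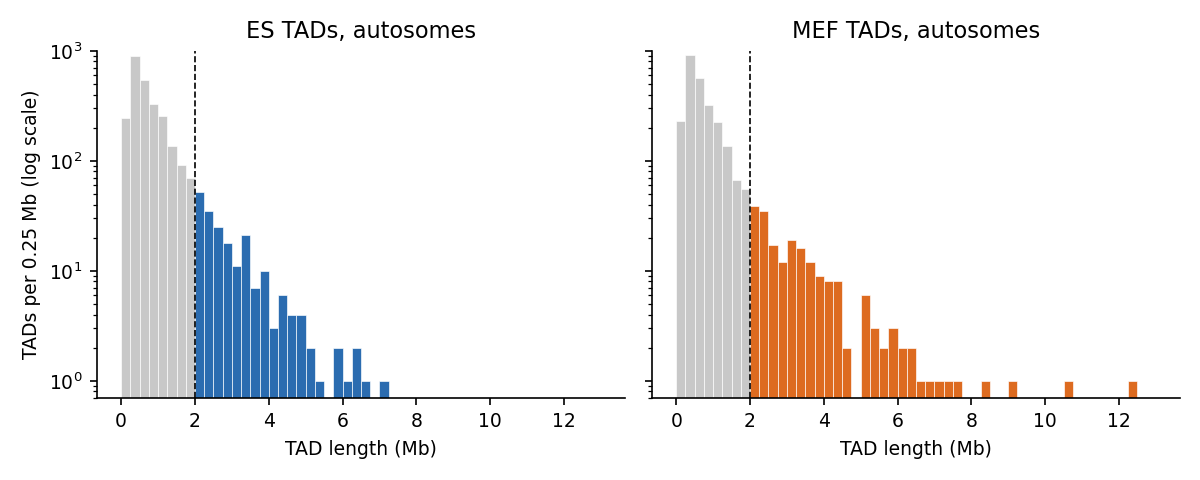
Number of autosomal TADs by length in steps of 0.25 Mb, on a log scale, for ES (left) and MEF (right). Coloured bars right of the dashed line at 2 Mb are the 206 and 204 long TADs, and the MEF tail reaches 12.4 Mb where the ES tail ends at 7.24 Mb.

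Long TADs were poorer in genes than shorter ones, most of all in genes that took part in a listed contact. The authors' TKO lists name the genes of each contact anchor. By that measure long ES TADs held 3.7 genes per Mb against 5.58 in TADs under 2 Mb, and long MEF TADs 3.34 against 5.85. RefSeq coding genes gave 6.97 against 8.98 per Mb in ES and 7.41 against 8.93 in MEF. The median long TAD held 2.85 coding genes per Mb in ES and 2.44 in MEF, while shorter TADs had medians of 6.0 and 6.25. Long ES TADs reached 42.0 coding genes per Mb at most, and 67 of 206 held no gene of the TKO lists. In MEF 71 of 204 held none. Since the TKO lists name a gene only where its bin has a contact, this measure falls with contacts as well as with genes.

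Receptor gene families lay in long TADs more often than the 26.1% of the span in ES and 29.5% in MEF that these TADs cover. Of all coding genes 21.5% lay in long ES TADs and 25.7% in long MEF TADs. Vomeronasal receptor genes, which detect pheromones, had 62.0% of their members in long ES TADs and 80.1% in long MEF TADs. Olfactory receptor genes had 43.3% and 59.8% there. Genes named as zinc finger proteins had 30.5% and 47.0%, and genes of 500 kb or more 27.7% and 31.3%. Of a list of 34 long neuronal and adhesion genes, 12 (35.3%) lay in long ES TADs, among them the cell adhesion genes Cntn4, Pcdh7 and Pcdh9 and the teneurin gene Tenm3. In MEF 18 of the 34 (52.9%) did, among them the cadherin family genes Cdh8 and Cdh12. Of 24 fibroblast genes 4 (16.7%) lay in long ES TADs (Twist2, Zeb2, Runx1 and Postn) and 2 (8.33%) in long MEF TADs (Col1a1 and Tbx15). Of 23 pluripotency genes 3 lay in long MEF TADs, Zfp42, Dppa4 and Lin28a. Developmental regulators in gene-poor surroundings had 4 of 26 (15.4%) in long TADs of either file, with the transcription factor genes Bcl11b and Foxp2 in both. The lists are short, and their shares were not tested against that of all coding genes.

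Long TADs held fewer H3K27ac interactions per Mb than shorter ones, and the gap was wider in MEF than in ES. An interaction was counted where both anchors lay in the same TAD. ES H3K27ac gave 20.6 interactions per Mb in long ES TADs and 32.6 in those under 2 Mb, a ratio of 0.631. MEF H3K27ac gave 9.43 and 30.5 per Mb in MEF TADs, a ratio of 0.309. In the other file's TADs the ratios were 0.473 for ES H3K27ac in MEF TADs and 0.491 for MEF H3K27ac in ES TADs, so MEF lay below ES in either file. Counting error alone gave 95% limits of 0.619 to 0.643 for the ES ratio and 0.301 to 0.317 for the MEF ratio. The ratio lay below 1 on 16 of 19 chromosomes in ES and on 19 of 19 in MEF.

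KLF4 interactions followed the same order. ES KLF4 gave 6.98 interactions per Mb in long ES TADs and 10.8 in shorter ones, a ratio of 0.644. Day 3 KLF4 gave 5.69 and 10.8 per Mb in ES TADs, a ratio of 0.525, and 4.25 and 11.7 in MEF TADs, a ratio of 0.363. Day 6 KLF4, with the shortest list, gave ratios of 0.531 and 0.349. TKO H3K27ac gave 0.629 without dox and 0.638 with it in ES TADs. Hi-C, whose contacts defined the TADs, gave 75.1 and 135 per Mb in ES and 36.6 and 108 in MEF, ratios of 0.557 and 0.339.

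Within each group the libraries gave nearly the same ratio, since they share 1 list of interactions. On contact counts, the MEF H3K27ac ratio in ES TADs was 0.498 ± 0.00168 (SD, n = 2) and the ES ratio 0.67 ± 0.000976 (SD, n = 2). The groups did not overlap, but an exact two-sided permutation test of 2 against 2 libraries cannot go below p = 0.333. Day 3 KLF4 had 0.534 ± 0.00236 (SD, n = 3) and ES KLF4 0.671 ± 0.000851 (SD, n = 2 after joining), without overlap and with an exact permutation p of 0.2, the smallest these numbers allow. TKO libraries differed by 0.0101 in ES TADs, from 0.66 without dox to 0.67 with it, and went the other way in MEF TADs, from 0.497 to 0.49. None of 10 such comparisons passed Benjamini-Hochberg adjustment (exact permutation tests, adjusted p = 0.333). With these numbers of libraries none could, since the smallest p that such a test allows ran from 0.0571 to 0.333. The tests therefore say nothing on whether the groups differ.

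**Figure D2:**
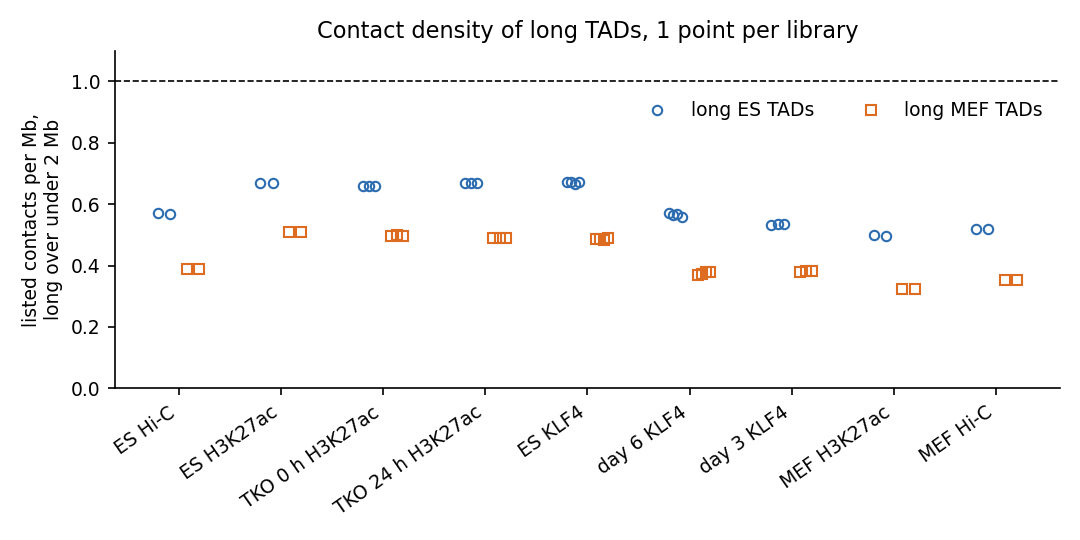
Listed contacts per Mb in long TADs over those in TADs under 2 Mb, 1 point per library (circles for ES TADs, squares for MEF TADs), with a dashed line at equal density. All points lie below 1, and libraries of a group lie close together, as for MEF H3K27ac near 0.498 in ES TADs.

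Interactions in long TADs were not longer than those in shorter ones. The median distance between anchors of ES H3K27ac interactions was 25 kb in long TADs and 30 kb in shorter ones, and for MEF H3K27ac in MEF TADs it was 20 kb in both. Interactions of 50 kb or more made up 24.1% of ES H3K27ac in long TADs and 26.4% in shorter ones, and 18.4% and 22.9% of MEF H3K27ac. For ES Hi-C these shares were 46.9% and 48.3%.

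A small number of members held most of the contacts. In ES, 50% of the H3K27ac interactions of long TADs lay in 18 of 206, while 52 held none. In MEF 50% lay in 20 of 204, and 53 held none. The median long TAD had 3.34 ES H3K27ac interactions per Mb in ES, below the 7.61 of shorter TADs, and 2.33 of MEF H3K27ac in MEF, below 13.3. Still, 83 long ES TADs (40.3%) and 47 long MEF TADs (23.0%) lay above the median of shorter TADs. Across long TADs, H3K27ac density rose with coding gene density, with a Spearman correlation of 0.73 over the 206 ES members and 0.72 over the 204 MEF members. These points share libraries, depth and base composition, and the correlation is a description only.

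Long TADs were therefore split by gene content, with limits chosen after the values were seen: gene-poor (under 2 coding genes per Mb), gene-rich (10 or more), intermediate, and receptor cluster (5 or more olfactory or vomeronasal genes). Gene-poor TADs formed the largest class, 92 of 206 in ES with 282 Mb and 96 of 204 in MEF with 350 Mb. They held 1.71 ES H3K27ac interactions per Mb in ES, against 3.87 in gene-poor TADs under 2 Mb, and 1.85 MEF H3K27ac interactions per Mb in MEF, against 11.6. Of the gene-poor members, 48 of 92 in ES and 47 of 96 in MEF held no H3K27ac interaction of their own cell type.

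Gene-rich long ES TADs did not share this deficit in the H3K27ac and KLF4 lists of ES cells. The 38 ES members of this class held 73.8 H3K27ac interactions per Mb, and gene-rich TADs under 2 Mb held 70.5, a ratio of 1.05. ES KLF4 also gave a ratio of 1.05, with 25 against 23.8 per Mb, and TKO H3K27ac gave 1.04 without dox and 1.05 with it. The other lists stayed below 1 in the same TADs. ES Hi-C gave 0.9, MEF Hi-C 0.828, day 3 KLF4 0.82, day 6 KLF4 0.789 and MEF H3K27ac 0.78. In MEF the 42 gene-rich members held 32.2 H3K27ac interactions per Mb against 49.6, a ratio of 0.649, and intermediate members 7.15 against 27.9. In these gene-rich MEF TADs the ES lists were below 1 too. ES H3K27ac gave 0.801, ES KLF4 0.771, and TKO H3K27ac 0.756 without dox and 0.759 with it. The ratio thus differed with the TAD file as well as with the list. On contact counts the ES H3K27ac ratio was 1.13 in both libraries in ES TADs, and 0.873 and 0.876 in MEF TADs. The MEF H3K27ac ratio in MEF TADs was 0.692 in one library and 0.696 in the other. Receptor-cluster TADs, with 13 long members in ES and 16 in MEF, gave 23.1 and 21.5 ES H3K27ac interactions per Mb in ES, and 12.1 and 9.04 MEF H3K27ac interactions per Mb in MEF, ratios of 1.08 and 1.34. In the ES TADs of this class ES KLF4 gave 1.01, MEF H3K27ac 1.02, ES Hi-C 1.31 and MEF Hi-C 1.53. Below 1 there were TKO H3K27ac, 0.904 without dox and 0.938 with it, day 3 KLF4, 0.741, and day 6 KLF4, 0.687. ES H3K27ac in the receptor-cluster TADs of the MEF file gave 30.2 and 15.6 per Mb, a ratio of 1.93.

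**Figure D3:**
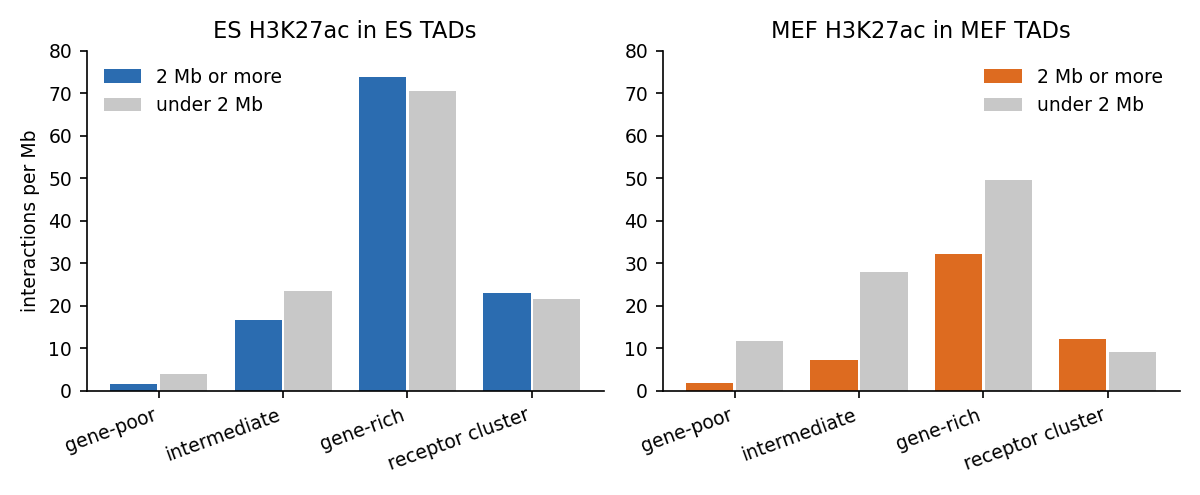
H3K27ac interactions per Mb by class of gene content, in ES TADs (left) and MEF TADs (right). Coloured bars are TADs of 2 Mb or more and grey bars those under 2 Mb. In ES the gene-rich bars stand at 73.8 and 70.5, and in MEF at 32.2 and 49.6.

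Pooled over long TADs, contacts were sparser far from a border than near one. Within 200 kb of a border, long ES TADs held 29.6 ES H3K27ac interactions per Mb, and more than 1000 kb from the nearer border 14.3. Coding genes went from 7.83 to 6.39 per Mb over the same distances. In MEF the H3K27ac interactions went from 17.6 to 3.78 per Mb and coding genes from 9.58 to 6.08. ES KLF4 went from 10.6 to 4.82 per Mb in ES TADs, and day 3 KLF4 from 9.13 to 1.94 in MEF TADs. Shorter TADs showed the same order. From the first 200 kb to 500 to 1000 kb from a border, ES H3K27ac went from 36.0 to 27.2 per Mb in ES TADs under 2 Mb and from 29.6 to 19.6 in long ones. MEF H3K27ac in MEF TADs went from 33.8 to 21.5 and from 17.6 to 9.96 over the same distances. These values pool TADs of unlike length: only TADs over 2 Mb reach beyond 1000 kb from a border, and the longest add most there. Gene-poor long TADs, a class defined above, had a median length of 3.28 Mb in MEF, and gene-rich ones 2.68 Mb. In ES these medians were 2.66 and 2.56 Mb. A fall within TADs and a difference between TADs therefore cannot be told apart here.

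The other cell type divided most long TADs. A border of the other file counted as inside when it lay more than 40 kb, 1 step of the files, from both ends. Of 206 long ES TADs 135 held at least 1 MEF border (65.5%, Wilson 95% interval 58.8 to 71.7), against 23.5% of shorter ES TADs. Of 204 long MEF TADs 156 held an ES border (76.5%, 70.2 to 81.8), against 22.8% of shorter ones. Per Mb of span, however, long and short ES TADs held 0.416 and 0.417 MEF borders, and long and short MEF TADs 0.486 and 0.412 ES borders. A long TAD was therefore divided about as often per Mb as a short one. Most divided members held 1 inner border (63 in ES, 67 in MEF) or 2 (40 and 48), and the highest numbers were 6 in ES and 10 in MEF.

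Gene-poor long ES TADs held the fewest MEF borders per Mb of the classes of long ES TADs. Of these 47 of 92 (51.1%) held no MEF border, against 8 of 63 intermediate members (12.7%) and 10 of 38 gene-rich members (26.3%). The densities of inner borders were 0.249, 0.62 and 0.534 per Mb. In ES TADs under 2 Mb of the same classes they were 0.238, 0.443 and 0.533, so gene-poor TADs had the lowest of the 3 at either length. Receptor-cluster members had 0.354. In MEF 27 of 96 gene-poor members (28.1%) were undivided, with 0.391 ES borders per Mb. Both ends of a long TAD matched a border of the other file within 40 kb in 67 ES TADs (32.5%) and 75 MEF TADs (36.8%). In 16 of these the TAD was also undivided, and 7 had the same coordinates in both files.

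Borders inside a long TAD were then checked against HiChIP contacts, which had no part in calling them. At 205 MEF borders with 400 kb of the same long ES TAD on each side, 250 ES H3K27ac interactions spanned the border, 1.22 per border. Positions 160 to 400 kb away were spanned by 1.4 each, a ratio of 0.873. MEF H3K27ac interactions spanned the same borders 61 times, 0.298 per border against 0.971, a ratio of 0.307. MEF H3K27ac contacts thus crossed MEF borders less often than flanking positions, with library ratios on counts of 0.332 and 0.343, while in ES these were 0.919 and 0.926. The spanning number was below that of the flanks at 122 borders and above it at 19 in MEF, and at 83 and 31 in ES. Without the 1 border that most interactions spanned, the ratios were 0.811 in ES and 0.279 in MEF. ES KLF4 gave 0.733 and day 3 KLF4 0.38, the latter from 25 interactions. Hi-C interactions gave 0.445 in ES, where the ES file has no border, with 151 borders below their flanks and 16 above, and 0.112 in MEF.

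Borders of the other kind gave another picture. At 281 ES borders inside long MEF TADs, ES H3K27ac interactions gave a ratio of 0.445, from 117 interactions at the border. MEF H3K27ac gave 0.189, from 24 interactions, although the MEF file has no border there. Library ratios were 0.5 and 0.511 in ES and 0.214 and 0.208 in MEF. Without the most spanned border the ratios were 0.385 and 0.159. Hi-C interactions gave 0.225 in ES and 0.244 in MEF. The libraries differ in depth and in the length of their lists, and the part of either was not tested.

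**Figure D4:**
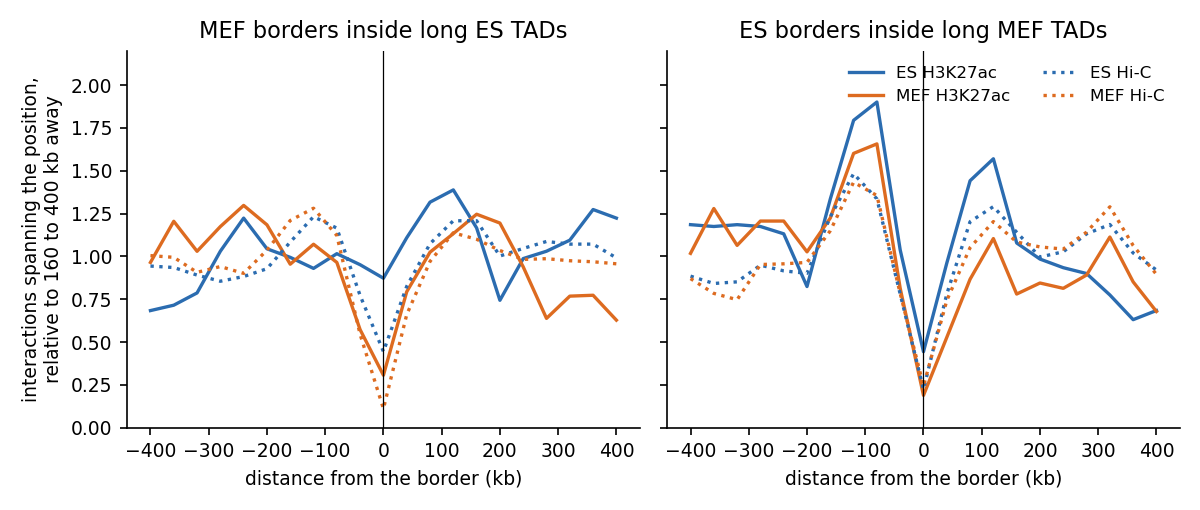
Mean number of listed interactions that span a position, relative to the mean of positions 160 to 400 kb away, by distance from a border of the other file inside a long TAD (left 205 MEF borders in ES TADs, right 281 ES borders in MEF TADs). Solid lines are H3K27ac and dotted lines Hi-C. At the border the ES H3K27ac line stays at 0.873 on the left and drops to 0.445 on the right.

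The longest ES TAD was a gene desert that both cell types shared. It lay at chr2:94440001-101680000, 7.24 Mb, with identical borders in the MEF file. Its 4 coding genes were Lrrc4c, Iftap and the recombinase genes Rag1 and Rag2, which rearrange antigen receptor genes in lymphocytes. ES and MEF Hi-C had 3 interactions each in it, and no H3K27ac library had a listed contact there. Of KLF4, day 3 had 1 interaction and the other lists none. A listed 0 means that no pair of bins passed the authors' filters, not that no contact was sequenced.

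The second longest was its opposite. It lay at chr8:68760001-75280000, 6.52 Mb, with 140 coding genes and 119 genes of the TKO lists, the highest number of any long ES TAD. It also held the most ES H3K27ac interactions, 561, against 167 of MEF H3K27ac. Listed H3K27ac contacts inside it came to 225 and 234 CPM (counts scaled to the contact total of the library) in the ES libraries and 43.5 and 47.2 CPM in the MEF libraries, with every ES library above every MEF library. ES KLF4 gave 58.5, 58.7, 50.2 and 46.8 CPM, and day 3 KLF4 20.1, 19.1 and 16.1, again without overlap. TKO H3K27ac stood at 231, 241 and 239 CPM without dox and at 211, 220 and 213 with it. These sums take in interactions that 1 list holds and the other lacks, so they move with the length of the list. Over the 112 interactions that both H3K27ac lists hold, the ES libraries had 62.6 and 64.8 CPM and the MEF libraries 31.2 and 33.3. That sum was higher in ES by 0.72 ± 0.04 on the log2 scale (SE; adjusted p = 4.7e-13, edgeR quasi-likelihood test with Benjamini-Hochberg adjustment over all TADs).

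MEF borders divided this TAD at 5 places. The 6 MEF TADs over it took 0.32, 1.8, 1.28, 1.2, 1.6 and 0.32 Mb of its span. ES H3K27ac interactions inside these pieces numbered 1, 264, 70, 179, 0 and 31, and MEF H3K27ac interactions 2, 93, 19, 44, 0 and 8. The fifth piece was empty of H3K27ac in both cell types. The fourth holds Klf2, a pluripotency factor of the KLF family, whose bin had 11 ES and 1 MEF H3K27ac interactions and 3 KLF4 interactions both in ES and on day 3. Bins with the most ES H3K27ac interactions were those of the lysosomal thiol reductase gene Ifi30 with Mpv17l2, 17 in ES and 3 in MEF, and of the RNA-binding protein gene Lsm4, 15 and 7.

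**Figure D5:**
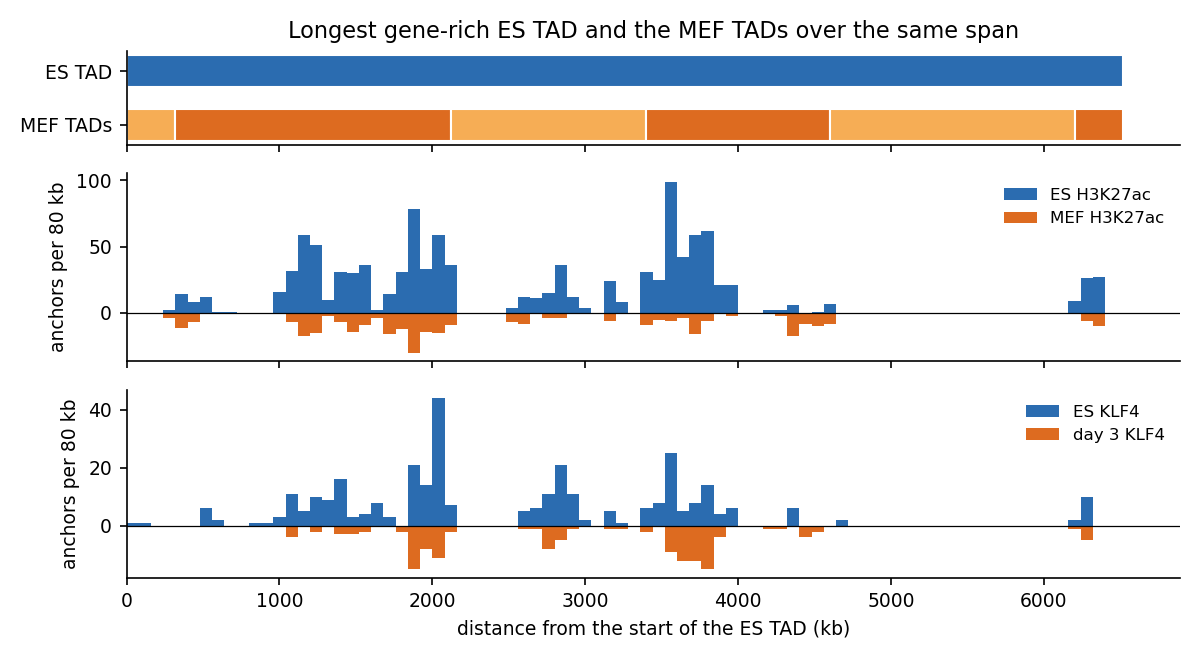
The longest gene-rich ES TAD (6.52 Mb) with the MEF TADs over the same span (top), and anchors of listed interactions per 80 kb by distance from its start, for H3K27ac (middle) and KLF4 (bottom). Bars upward are ES and bars downward are MEF or day 3. Most H3K27ac interactions lie within MEF TADs 2, 3 and 4 from the left (264, 70 and 179 in ES), and the fifth has none.

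The MEF file had its own extremes. Its longest TAD, chr7:6960001-19360000 with 12.4 Mb, held 194 coding genes and 10 ES borders, and 49.4% of it fell in the largest ES TAD over it. That ES TAD, chr7:6960001-13080000, is itself long and holds 79 coding genes, with vomeronasal receptors and zinc finger genes. The second, chr1:106840001-117480000 with 10.64 Mb, held 16 coding genes, 9 ES and 1 MEF H3K27ac interactions, and 6 ES borders. The third, chr12:17280001-26480000 with 9.2 Mb, held 56 coding genes and 8 ES borders. H3K27ac contacts in the first stood at 103 and 106 CPM in ES and 43.9 and 50.4 in MEF, so both ES libraries lay above both MEF libraries inside a span that ES borders divide. Over its 90 interactions in both lists they were 40.5 and 41.9 CPM in ES and 26.3 and 31.5 in MEF, a log2 change of 0.25 ± 0.04 (SE; edgeR adjusted p = 0.00046).

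The 7 TADs with the same coordinates in both files were of both kinds. The TAD at chr11:100320001-102440000 held 89 coding genes, 268 ES and 171 MEF H3K27ac interactions. There the bin of Cavin1, a caveolar coat gene of fibroblasts, had 0 in ES and 8 in MEF, that of Stat3, a signal transducer of the LIF pathway, 3 and 8, and that of the nucleolar factor gene Ubtf 14 and 2. The TAD at chr9:9400001-13840000, with the adhesion gene Cntn5 and 5 other coding genes, had 17 ES and 56 MEF H3K27ac interactions and 4 and 21 KLF4 interactions in ES and on day 3. Its H3K27ac contacts were 5.17 and 5.01 CPM in ES and 16.8 and 20.3 in MEF, with no overlap. Only 1 interaction there was in both lists (log2 change −0.26 ± 0.25 SE, edgeR adjusted p = 0.45). The TAD at chr4:141800001-144880000 went the other way, 90 ES and 12 MEF interactions, with the bin of the junction protein gene Kazn at 12 and 0. Over the 3 interactions of that TAD in both lists, the log2 change was −0.09 ± 0.12 (SE, edgeR adjusted p = 0.54).

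At the pluripotency genes in long ES TADs, counted over the bins that the authors' gene columns give for each gene, or over the bins of its RefSeq starts where they give none (Esrrb and the fibroblast and neuronal genes below), H3K27ac interactions were nearly all ES. Mycn, a MYC family gene, had 23 in ES and 0 in MEF, and 5 ES KLF4 interactions against 1 on day 3. Sall4, a zinc finger factor of the pluripotency network, had 20 and 0, with 3 ES KLF4 interactions and 0 on day 3. Tet1, an enzyme that oxidises 5-methylcytosine, had 11 and 0, with 3 ES KLF4 interactions and 0 on day 3, and Prdm14, a repressor of differentiation in naive ES cells, 7 and 0. Dppa4 had 5 and 0, and Esrrb, an orphan nuclear receptor, 6 and 0, with no KLF4 interaction in ES. Those of Esrrb lay at a second start bin, and the bin of its printed promoter had 0. The bin that the gene columns give for Tet1 starts at chr10:62900001, not at its printed promoter. The bin of that promoter had 7 H3K27ac interactions in ES and 0 in MEF, and 2 ES KLF4 interactions. All but Dppa4, whose MEF TAD had 2.12 Mb, lay in MEF TADs under 2 Mb. Of the fibroblast genes, the transcription factor gene Runx1 had 1 H3K27ac interaction in ES and 24 in MEF, and 2 and 11 KLF4 interactions in ES and on day 3. Postn, a matrix protein gene, and Twist2 had 0 in ES and 2 in MEF each, and Zeb2 had 0 in both. Of the long neuronal genes, Cntn4, Pcdh9, Macrod2 and Tenm3 were listed at 0 in the ES and MEF H3K27ac lists and in all KLF4 lists.

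H3K27ac interactions held in both the MEF and the ES list were tested for a difference in strength. Of those inside a long TAD of either file, 1480 of 4254 passed (34.8%, edgeR quasi-likelihood test, adjusted p under 0.05), against 32.0% of all 17901 tested. Higher in ES were 873 (20.5%, background 17.6%) and lower 607 (14.3%, background 14.4%). The median log2 change was 0.01 over members and −0.04 over all. These shares lie near the background. Without MEF replicate 2, the deeper of the pair, 20.6% of members passed, and DESeq2 called 619 of the 3933 to which it gave an adjusted p (15.7%). The split depends on scaling: with contact totals in place of TMM factors 80.5% of the called members were higher in ES in place of 59.0%, and the median of all interactions moved by about the same amount as that of members, to 0.21 and 0.26.

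By class, and against the same background of 17.6% higher and 14.4% lower, gene-poor long ES TADs had 4 interactions higher in ES and 14 lower among 42 tested (9.52% and 33.3%), and receptor-cluster TADs 68 higher and 14 lower among 177 (38.4% and 7.91%). With contact totals in place of TMM factors these became 9 and 10, and 92 and 6. DESeq2 called 2 and 8 of 41, and 33 and 3 of 175. In gene-poor TADs more were lower than higher in each of the 3 runs, but only by 10 to 9 with contact totals. The size of that gap therefore depended on scaling. In receptor-cluster TADs more were higher in ES in each run. Among all called interactions 55.1% were higher in ES in the main run, 77.2% with contact totals and 64.0% with DESeq2. The strongest gain in ES paired adjacent bins at chr10:108280001-108300000, which hold no RefSeq gene: it had 747 and 744 counts in ES and 30 and 30 in MEF. In CPM these were 4.49 and 4.42 against 0.4 and 0.285, a log2 change of 3.49 ± 0.15 (SE; edgeR adjusted p = 3.5e-25). The next joined the bins of Zbtb45 and of Trim28, the corepressor that silences retroviral elements, with 3.92 and 3.99 CPM in ES and 0.347 and 0.39 in MEF (log2 change 3.16 ± 0.14 SE). Lower in ES were contacts within the actin-linked gene Pdlim1, 0.252 and 0.267 against 0.96 and 1.47 CPM (log2 change −2.52 ± 0.18 SE), between S100a3 and S100a4 (−2.64 ± 0.19 SE) and at the immediate early gene Fosb (−2.09 ± 0.18 SE). Libraries of the groups did not overlap at any of these.

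Summed over each TAD, 68 of the 100 long ES TADs tested passed (68.0%, edgeR adjusted p under 0.05), with a background of 57.4% of 1319 TADs, and 62 of the 98 long MEF TADs (63.3%, background 56.5%). The remaining long TADs of each file had too few contacts in both lists to be tested, so these shares speak of the better covered members. In ES TADs 39 were higher in ES and 29 lower (39.0% and 29.0%, background 30.3% and 27.1%). In MEF TADs 43 were higher in ES and 19 lower (43.9% and 19.4%, background 29.7% and 26.8%). With contact totals in place of TMM the higher share among called members went from 57.4% to 91.4% in ES TADs and from 69.4% to 88.7% in MEF TADs, and over all TADs from 52.8% to 82.6% and from 52.5% to 82.5%.

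Among those higher in ES with the lowest adjusted p were the receptor-cluster TAD at chr7:6960001-13080000, with 14.9 and 14.7 shared contacts CPM in ES and 5.67 and 6.63 in MEF (log2 change 1.0 ± 0.05 SE, edgeR adjusted p = 1.4e-13), and chr5:132640001-135360000. The latter holds Gtf2ird1, Gtf2ird2 and Baz1b of the Williams syndrome region and had 22.3 and 23.7 against 10.5 and 10.8 CPM (0.85 ± 0.05 SE). The MEF TAD at chr17:36800001-40960000 holds the imprinting factor gene Zfp57 and had 14.1 and 14 against 5.32 and 5.68 (1.1 ± 0.05 SE). Lower in ES was chr6:108400001-111040000, with Bhlhe40, a clock and hypoxia regulator, at 5.36 and 5.8 against 8.24 and 10.3 CPM (−1.0 ± 0.06 SE, edgeR adjusted p = 7.1e-13). Its KLF4 contacts were 7.65, 7.33 and 5.78 CPM on day 3 and 2.92, 2.99, 3.07 and 2.91 in ES. Another was chr19:39000001-41280000 with Pdlim1 and the ectonucleotidase gene Entpd1, −0.7 ± 0.05 (SE).

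KLF4 interactions of long TADs differed between day 3 and ES about as often as elsewhere: 147 of 1911 passed (7.69%, edgeR adjusted p under 0.05), against 7.2% of all 7387 tested. Of these 64 were higher in ES (3.35%, background 3.02%) and 83 lower (4.34%, background 4.18%). The share dropped to 2.04% without day 3 replicate 3, the deepest library, to 4.29% without day 3 replicate 2, to 4.34% without day 3 replicate 1 and to 4.87% without ES replicate 4, and DESeq2 called 21 of the 1352 to which it gave an adjusted p (1.55%). The contact from the Klf2 bin to a bin 20 kb away was higher in ES, with 0.469, 0.482, 0.58 and 0.647 CPM in ES and 0.276, 0.184 and 0.166 on day 3 (log2 change 1.5 ± 0.21 SE, edgeR adjusted p = 7.2e-08). All ES libraries lay above all day 3 libraries. Another, between bins in the long ES TAD of Mycn that the authors' gene columns assign to Platr19, a noncoding gene, was also higher in ES, with 0.378, 0.309, 0.461 and 0.441 CPM against 0.147, 0.155 and 0.105 (1.6 ± 0.24 SE). Lower in ES was one at Tubb2b, a beta-tubulin gene of neurons, with 0.662, 0.655 and 0.504 CPM on day 3 and 0.24, 0.231, 0.132 and 0.216 in ES (−1.55 ± 0.22 SE), and contacts within Asap2 (−1.47 ± 0.22 SE) and Sh3bp5 (−1.36 ± 0.23 SE).

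In the TKO cells 480 of 17701 H3K27ac interactions inside long TADs passed between 0 and 24 h of dox (2.71%, edgeR adjusted p under 0.05), against 2.62% of all 67728 tested. Of these 358 were lower after dox (2.02%, background 2.04%) and 122 higher (0.689%, background 0.576%). The lowest adjusted p belonged to a contact between the bins of Pramel7 and Pramel6, genes of the PRAME family expressed in early embryos, with 2.97, 3.16 and 3.14 CPM without dox and 1.07, 1.12 and 1.08 with it (log2 change −1.38 ± 0.12 SE, edgeR adjusted p = 1e-26). A contact within Pramel6 fell by 1.1 ± 0.12 on the log2 scale (SE). Of those higher after dox, the lowest adjusted p belonged to a contact between bins at chr7:138130001 and chr7:138150001, which hold no RefSeq gene (0.89 ± 0.18 SE, edgeR adjusted p = 0.00015). Also higher were contacts within Coro1c, an actin regulator (0.85 ± 0.17 SE), and at Tcf3, a transcription factor gene, with Uqcr11 (0.79 ± 0.16 SE). In gene-poor long ES TADs 19 of 446 interactions were called (4.26%) and each was lower after dox, against a background of 2.04%. An unadjusted p under 0.05 (edgeR) was found for 59 of these 446 and for 9218 of all 67728. With contact totals 35 of the 446 were called, each lower, and DESeq2 called 1 of 17, also lower. Receptor-cluster long ES TADs had 44 of 883 called in the main run (4.98%), 30 lower and 14 higher. Gene-poor long MEF TADs had 40 of 566 called, 39 lower and 1 higher. The split depends on scaling here too: with contact totals in place of TMM 4.84% of the called members were higher after dox in place of 25.4%, and the median of all interactions moved from 0.01 to −0.1. DESeq2 called 27 of the 1433 members to which it gave an adjusted p (1.88%), and those 27 were lower. With 1 library left out the share was 1.75%, 1.82% and 1.68% without replicates 1, 2 and 3 of the group without dox, and 1.71%, 1.52% and 1.49% without those of the dox group.

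MEF H3K27ac interactions of long MEF TADs were in the ES list more often than those of shorter MEF TADs. Of 6515 MEF H3K27ac interactions in long MEF TADs 38.7% were also in the ES list (Wilson 95% interval 37.5 to 39.9), against 27.8% (27.4 to 28.2) in MEF TADs under 2 Mb. The reverse share was not higher in the same TADs. The 2521 shared interactions of long MEF TADs stood beside 11214 ES H3K27ac interactions, and the 14040 of shorter ones beside 56791. The part of list length in these shares was not tested. In ES TADs, 22.9% of the 12610 ES interactions of long TADs were in the MEF list, against 24.3% in shorter ones. Day 3 KLF4 interactions of long ES TADs were in the ES list in 34.2% of 3489 cases, and 27.8% of 4284 ES ones were in the day 3 list, against 30.7% in either direction in shorter TADs. Intervals cover counting error only, since amplified ligation products are not independent molecules.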

How the data were processed

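HiChIP and Hi-C contacts were measured in 25 libraries of 9 groups, 21 HiChIP and 4 Hi-C, mapped to groups by the labels. The submitters' processing notes name Bowtie2 2.2.3 and mm10. The contact and domain callers are not given in the sources used here. Per the file headers, each of the 9 deposited lists gives, for pairs of 10 kb bins, raw counts per library, CPM, a ratio to the contacts expected at that distance, and p-values. In the HiChIP lists the deposited CPM values matched counts scaled to the contact total of the same chromosome, from which contact totals per library were recovered. In the Hi-C lists the deposited values under that name were a signal scaled by chromosome constants. The 2 deposited domain files give borders in steps of 40 kb with a separation score, which was not used. Only interactions that passed the authors' filters are listed, and pairs of bins outside a list are unknown, not 0.

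Genes were placed by RefSeq (GRCm38.p6) midpoints. Of 11758 bins that the authors' TKO gene columns pair with a RefSeq symbol, 97.11% overlapped that gene. Interactions in both lists of a comparison were tested on counts with edgeR 4.0.16 (R 4.3.3) quasi-likelihood tests over all interactions, with TMM factors on contact totals and Benjamini-Hochberg adjustment at 0.05. Libraries whose counts gave a chi-square p of 0.01 or more, over interactions of pooled CPM of 6 or more, were joined where another pair of their group gave a lower p. No pair of day 6 libraries did, so these 4 stayed separate (n = 4). Contacts summed per TAD were tested likewise. On simulated data with 200 features changed 2-fold, 64.5% were recovered for MEF against ES interactions, 70.5% for KLF4, 68% for TKO, and 99% and 96% for sums per ES and MEF TAD. Alternatives used DESeq2 1.42.0, other thresholds and filters, and libraries left out in turn. Tables and figures used Python 3.11.15 with pandas 2.3.3, scipy 1.17.1 and matplotlib 3.10.9.

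Regions named were the longest, the richest in genes or H3K27ac interactions, the most divided and the identical ones, and those with the lowest adjusted p of the summed test. Genes named were those at the bins with most interactions and members of the gene lists. Interactions described one by one were taken from those with the lowest adjusted p in each direction. Not all of these are described, and some of those left out lie at bins without a RefSeq gene. The members and lists were chosen with earlier results of these data known.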

Additional observations from a re-analysis of the deposited data

How the results depend on the processing

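Long TADs stayed below shorter ones in interactions and genes per Mb under all alternatives run, while the size of the gap moved. For ES H3K27ac in ES TADs the ratio of 0.631 became 0.687 with a threshold of 1.5 Mb, 0.587 with 2.5 Mb, 0.675 as the median within chromosomes, 0.678 with 1 count cutoff for all chromosomes, 0.578 for anchors 50 kb apart or more, 0.619 by the first anchor, 0.473 in MEF TADs and 0.582 with chromosome X. In the same order, without the first anchor and X, MEF H3K27ac in MEF TADs went from 0.309 to 0.382, 0.218, 0.286, 0.348, 0.249 and, in ES TADs, 0.491. ES KLF4 went from 0.644 to 0.695, 0.576, 0.67, 0.679, 0.535, 0.468 in MEF TADs and 0.595 with X, and day 3 KLF4 in MEF TADs from 0.363 to 0.467, 0.281, 0.317, 0.404, 0.3 and 0.525 in ES TADs. Gene density ratios were 0.662 in ES and 0.572 in MEF, and became 0.722 and 0.634 at 1.5 Mb, 0.602 and 0.442 at 2.5 Mb, and 0.777 and 0.83 with RefSeq coding genes. The share of divided long TADs stayed at 62.8% to 71.4% in ES and 72.7% to 80.9% in MEF.

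Shares of called interactions moved more. MEF against ES (34.8%) gave 15.7% with DESeq2 and 20.6% to 29.4% with 1 library left out. KLF4 (7.69%) gave 1.55% with DESeq2, 4.6% without TMM and 2.04% to 8.9% with 1 library left out. TKO (2.71%) gave 0.765% at 50 kb or more, 4.08% without TMM and 1.49% to 1.82% with 1 library left out. Sums per TAD stayed within 1.5 times of their 68.0% and 63.3% in all runs. DESeq2 shares are of the members to which it gave an adjusted p. A library that leaves 1 sample in a group is assumed to vary like the others. The causes of these changes were not tested.

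The labels do not say that a replicate number marks a shared batch, and deviations of same-numbered libraries correlated at 0.037 for MEF against ES interactions, −0.081 to 0.04 for KLF4, −0.01 to 0.015 for TKO, and 0.109 and 0.069 for sums per ES and MEF TAD. With the number as a block the shares were 35.4% for MEF against ES, 67.0% and 61.2% for sums per ES and MEF TAD, and, with all libraries separate (chosen after seeing the data, since joined libraries carry 2 numbers), 4.56% for KLF4 and 3.09% for TKO. Without the block, separate libraries gave 10.4% and 3.0%. Scalings by gene class were also compared after seeing the data. With gene-class limits of 3 and 8 or 1 and 12, also chosen after seeing the data, the gene-rich ratio was 1.04 and 1.13 in ES and 0.677 and 0.682 in MEF. The single cutoff was not run for Hi-C. Depth limits what is listed: day 6 KLF4, with 4047 interactions, says little about single TADs.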

Other observations

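Chromosome X was left out of the members. The ES file has 121 TADs on it, of which 23 reach 2 Mb and cover 57.0% of its TAD span, and the longest, chrX:114560001-129280000, has 14.7 Mb. The MEF file has 0 TADs on X, although the MEF Hi-C list holds 18655 interactions there and the ES Hi-C list 27953.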
